A study of Danio rerio with 30 samples.

Results

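Hox genes encode homeodomain transcription factors that give cells a position along the head-to-tail axis. They were followed here through 43 genes out of 19260 measured in zebrafish heads. Members were all platform symbols made of hox, a cluster letter from a to d, a paralog number and a copy letter, with the probe set of highest mean signal taken for each symbol. The platform names 48 such symbols, of which 5 (hoxa3a, hoxa4a, hoxa9a, hoxc9a and hoxc10a) occur only on probe sets annotated to several genes and are therefore without values here. Of the 43 members, 11 belong to paralog groups 1 to 4 and 32 to paralog groups 5 to 13.

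Total RNA was taken from heads of AB strain zebrafish, cut so that all tissue ahead of the gills was included, and hybridised to 30 Affymetrix ZebGene 1.0 ST arrays, each with a pool of 5 fish. Embryos had been injected before the 4-cell stage with a morpholino, an antisense oligomer, together with nCerulean mRNA, which encodes a nuclear fluorescent protein, and phenol red. In the control groups (SC) it was the standard control, which targets human beta-globin. In the knockdown groups (KD) it blocked splicing of grb10a, whose protein is an adaptor of the insulin receptor family. According to the series design the blocked site is the donor of coding exon 3, although exon 4 also appears in the treatment notes. Fish of either treatment were taken at 5, 10, 15, 20 and 30 dpf (days after fertilisation), with 3 arrays in each of the 10 groups. The comparison between treatments asks which transcripts differ in fish injected with the morpholino against grb10a.

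Hox genes lie in clusters in which the order of the genes matches the order of their expression domains, so that low-numbered paralog groups are expressed from the hindbrain and high-numbered ones from the trunk and tail backwards. Teleost fish carry duplicated clusters, whose copies are marked by a final a or b. In the head, groups 1 to 4 pattern the hindbrain and the pharyngeal arches, groups 4 to 8 mark the hindbrain-spinal cord junction, the anterior spinal cord and the pectoral fin region, and the highest groups act in the tail bud, the posterior trunk and the distal fin.

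Signals are log2 values per probe set. They ranged from 0.987 to 14.2 over all probe sets, array medians from 5.51 to 5.63, and arrays of the same group correlated at 0.968 to 0.990. Background was not measured, so the 6420 genes of lowest mean signal, under 6.06, were treated as dim. Of the Hox genes, 39 of 43 were dim, namely 9 of 11 in paralog groups 1 to 4 and 30 of 32 in groups 5 to 13. The brighter members were hoxb3a, hoxb4a, hoxa5a and hoxc11b. A difference that starts or ends under 6.06 may be held small by background, and signals of different probe sets were not set against each other. By the current annotation the gene spans of 11 members overlap another member, since hoxb3a spans hoxb4a, hoxb5a and hoxb6a, hoxc3a spans hoxc4a, hoxc5a, hoxc6a and hoxc8a, and hoxd3a overlaps hoxd4a. Where a probe lies in shared sequence these genes cannot be told apart. The signal of grb10a itself was higher in the arrays labelled knockdown at 5 dpf, by 1.01 ± 0.12 (SE, limma adjusted p = 3.59e-07), and its differences at the later ages lay between -0.24 and 0.33 with none past the threshold. Where its probes lie relative to the blocked splice site is not known here, so this signal checks neither the labels nor the block. Knockdown and control below refer to the labels.

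**Figure D1:**
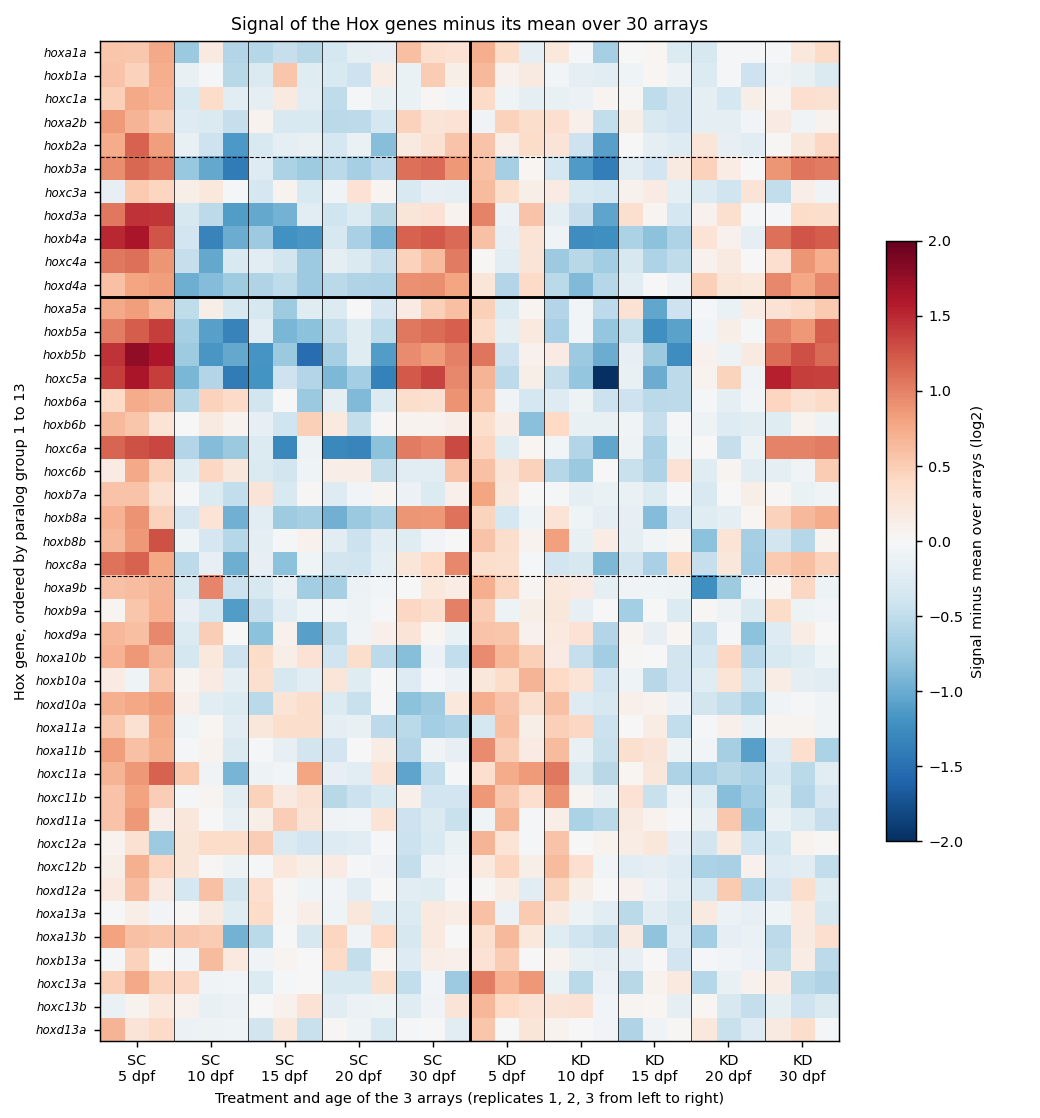
Signal of each of the 43 Hox genes minus its own mean over the 30 arrays (colour, log2), with genes ordered by paralog group from top to bottom and arrays by treatment and age from left to right. The solid horizontal line lies between paralog groups 4 and 5 and the dashed lines after groups 2 and 8. On average over groups 3 to 8 the signal is highest at 5 dpf in controls (0.83 to 1.05) and at 30 dpf in both treatments (0.46 to 0.69).

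In control heads the mean over the 43 Hox genes was highest at 5 dpf, lower at 10 dpf and higher again at 30 dpf. Not every gene followed it, and hoxd4a for example had means of 6.20 at 5 dpf and 6.33 at 30 dpf. In bins set after the values were seen, the mean centred signal at 10 and 30 dpf was -0.32 and 0.24 in paralog groups 1 and 2. It was -0.50 and 0.58 in groups 3 to 8, and -0.03 and -0.18 in groups 9 to 13. Between 5 and 10 dpf, 27 of 43 members fell and none rose, where 14.7% of all genes and 21.0% of the 6420 dim genes fell (28.5% of all genes changed either way). In paralog groups 1 to 4, 10 of 11 fell, with a median difference of -1.49. In groups 5 to 13, 17 of 32 fell, with a median of -0.64. The median over all genes was -0.02.

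The steepest falls were those of hoxb5b, hoxc5a, hoxb4a, hoxb5a and hoxb3a. Signals of hoxb5b, which in zebrafish limits the number of atrial heart cells downstream of retinoic acid, were 6.85, 7.17 and 7.01 in controls at 5 dpf and 4.69, 4.23 and 4.37 at 10 dpf. This is a difference of -2.58 ± 0.30 (SE, limma adjusted p = 2.69e-07), with the later arrays under the dim limit. The hoxc5a signal was 6.68, 6.92 and 6.68 at 5 dpf and 4.38, 4.71 and 3.90 at 10 dpf, a difference of -2.43 ± 0.32 (adjusted p = 1.36e-06). For hoxb4a, a gene of the posterior hindbrain, the values were 7.82, 7.95 and 7.57 against 5.93, 4.98 and 5.32, so that the difference was -2.37 ± 0.25 (adjusted p = 3.54e-08). The groups did not overlap for any of the 27 genes that fell. Since these genes were called from the same arrays, this adds no support to the calls, and the share over all genes is not given here. The same holds wherever called genes are said below not to overlap.

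Several other members of paralog groups 3 to 6 fell by similar amounts. The hoxb5a signal was 6.72, 6.91 and 7.07 at 5 dpf and 5.03, 4.61 and 4.35 at 10 dpf. The hoxb3a signal was 7.08, 7.30 and 7.22 at 5 dpf and 5.39, 5.12 and 4.76 at 10 dpf, a difference of -2.11 ± 0.24 (adjusted p = 1.75e-07). The hoxc6a signal, which marks the anterior trunk, was 6.15, 6.26 and 6.33 at 5 dpf and 4.41, 4.12 and 4.25 at 10 dpf. In each of these genes all 5 dpf arrays lay more than 1 unit above all 10 dpf arrays. The values of hoxd3a were 6.89, 7.27 and 7.26 at 5 dpf against 5.50, 5.31 and 4.71, and those of hoxd4a 6.05, 6.24 and 6.30 against 4.48, 4.59 and 4.75. For hoxc4a they were 6.31, 6.35 and 6.14 against 4.80, 4.23 and 4.95. The remaining members of these groups changed less. From 5 to 10 dpf the control mean went from 5.54 to 5.38 in hoxc3a and from 7.26 to 6.26 in hoxa5a. It went from 5.89 to 5.38 in hoxb6a, from 5.78 to 5.37 in hoxb6b and from 4.85 to 4.52 in hoxc6b.

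Genes of the front hindbrain and the arches fell less than the genes given with array values above. The differences were -1.0 for hoxa1a, -0.83 for hoxb1a, which sets the identity of the facial nerve segment in zebrafish, and -0.70 for hoxc1a. They were -1.04 for hoxa2b, which sets the identity of the second pharyngeal arch in zebrafish, and -1.49 for hoxb2a. In paralog group 8 all 3 genes fell, by -1.03 in hoxb8a, -1.26 in hoxb8b and -1.57 in hoxc8a. In paralog groups 9 to 13, a range set after the values were seen, 8 of 20 fell, with a median of -0.55 and the largest difference in hoxc11a at -1.07.

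The 5 dpf control arrays also stood apart in transcripts of other organs. The mean signal over 43 genes of the exocrine pancreas, liver and intestine (the visceral lists) was 9.44 to 9.50 in those arrays and 5.30 to 5.31 in controls at 10 dpf, with 41 of 43 genes lower. The heart list of 9 measured genes went from 6.04 to 6.17 down to 4.91 to 5.29, with 6 of 9 genes lower. The skeletal muscle list went from 9.38 to 9.42 down to 7.69 to 7.88, with 15 of 16 genes lower. The pectoral fin list of 10 genes went from 7.03 to 7.18 down to 6.20 to 6.43, with 6 lower and 1 higher, and all 3 spinal motor neuron genes were lower. With the visceral score of each array as a covariate no Hox gene was called for this step, and 2 of all genes were. With the heart list mean as a covariate 12 of 43 were called, and the share over all genes is not given here. Neither covariate overlapped between 5 and 10 dpf, so these fits cannot show the part of these tissues. The part of the tissue collected in these differences was not tested, and in whole pools fewer cells of a type and less RNA per cell cannot be told apart.

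**Figure D2:**
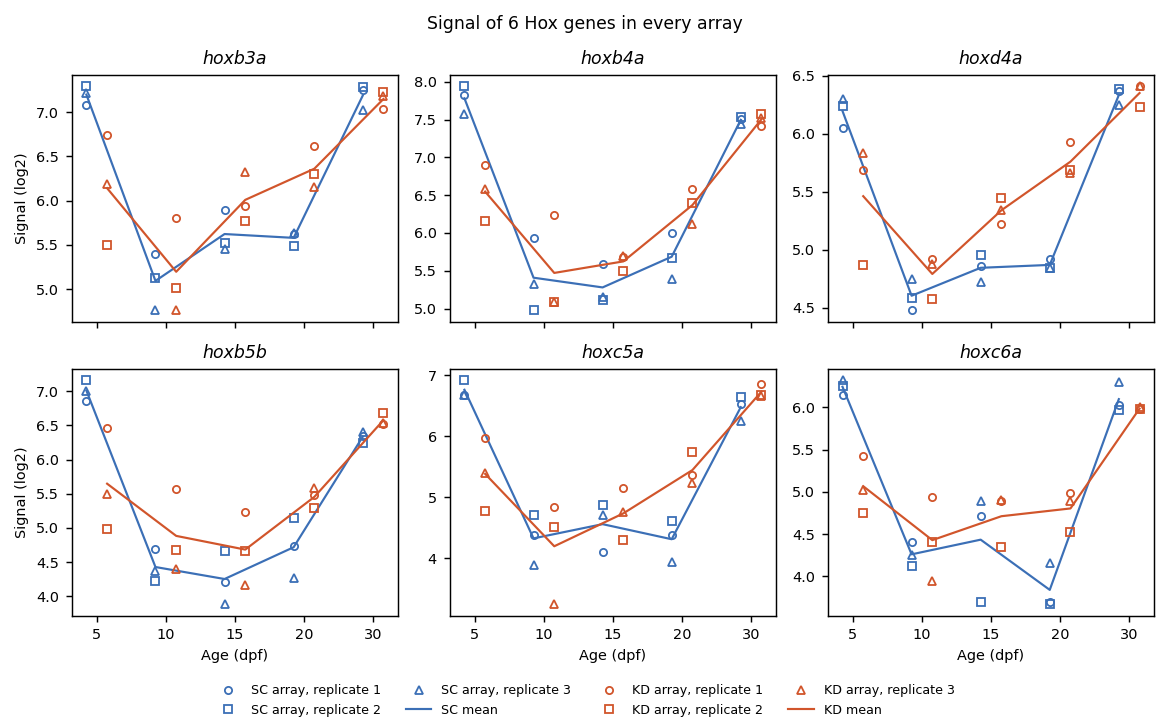
Signal (log2) of 6 Hox genes in each of the 30 arrays against age in dpf, with ages spaced evenly and not to scale. Open symbols are arrays, with a shape for each replicate number, and lines join the means of 3 arrays. In controls hoxb4a goes from 7.57 to 7.95 at 5 dpf down to 4.98 to 5.93 at 10 dpf and back to 7.44 to 7.54 at 30 dpf.

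Between 10 and 30 dpf in controls, 16 of 43 members rose and 2 fell, where 34.8% of all genes rose and 16.9% fell (51.8% changed either way). Of paralog groups 1 to 4, 8 of 11 rose, with a median of 0.86, and of groups 5 to 13, 8 of 32 rose and 2 fell, with a median of -0.01. The median over all genes was 0.12. Among dim genes 23.0% rose and 11.4% fell. The share of all members that rose was therefore near that of all genes and above that of dim genes, without a test. The classes differed in their counts, also without a test of that difference.

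The largest rises were those of genes of paralog groups 3 to 6. Signals of hoxb5a were 6.75, 6.81 and 6.88 at 30 dpf against 5.03, 4.61 and 4.35 at 10 dpf, a difference of 2.15 ± 0.21 (SE, adjusted p = 3.31e-09). The hoxc5a signal was 6.52, 6.65 and 6.26 at 30 dpf, which is 2.15 ± 0.32 above 10 dpf (adjusted p = 2.61e-06). Values at 30 dpf were 7.25, 7.29 and 7.02 for hoxb3a and 7.50, 7.54 and 7.44 for hoxb4a, each 2.09 above 10 dpf. All 30 dpf arrays lay above all 10 dpf arrays in these genes. The hoxb5b signal at 30 dpf was 6.35, 6.24 and 6.41, that of hoxc6a 6.02, 5.96 and 6.30, and that of hoxd4a 6.37, 6.39 and 6.25. For hoxd4a this is a rise of 1.73 ± 0.16 (adjusted p = 1.57e-09).

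Smaller rises were those of hoxc4a at 1.31, hoxb8a at 1.29, hoxb9a at 1.14, hoxc8a at 1.09, hoxb2a at 0.92, hoxd3a at 0.86, hoxa1a at 0.79, hoxa2b at 0.67 and hoxa5a at 0.66. The members that fell were hoxc12a, from 5.59, 5.72 and 5.71 to 4.92, 5.04 and 5.22, and hoxa11a, from 4.49, 4.61 and 4.33 to 4.02, 3.89 and 3.95. Both belong to the tail-ward groups and both were dim at either age. In paralog groups 9 to 13, hoxb9a was the only one of 20 that rose. In groups 3 to 8, 12 of 18 rose. At 15 dpf the control arrays lay above all 10 dpf arrays in 1 of the 16 genes that rose by 30 dpf (hoxb3a), and at 20 dpf in 4 (hoxb3a, hoxd4a, hoxb5a and hoxb9a), while the others overlapped 10 dpf. The same share over all genes is not given here, so these counts are not read as particular to Hox genes. The 16 were also called with the same 10 dpf arrays. The hoxb3a signal was 5.90, 5.52 and 5.45 at 15 dpf and 5.62, 5.49 and 5.63 at 20 dpf. The group means of hoxb4a were 5.41 ± 0.48 (SD, n = 3) at 10 dpf, 5.28 ± 0.26 at 15 dpf and 5.69 ± 0.30 at 20 dpf.

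Marker lists that moved from 10 to 30 dpf in controls included skeletal muscle, from 7.69 to 7.88 up to 10.21 to 10.40 with 15 of 16 genes higher, blood, from 5.24 to 5.43 up to 7.71 to 8.07 with 5 of 5 higher, and heart, from 4.91 to 5.29 up to 5.01 to 6.24 with 3 of 9 higher. Pharyngeal arch and gill went from 6.65 to 6.81 up to 7.15 to 7.24 with 4 of 9 higher and 1 lower, and forebrain and midbrain from 6.95 to 7.26 down to 6.65 to 6.69 with 7 of 16 lower. The hindbrain list had 2 of 8 higher and 2 lower. The visceral lists reached 5.48 to 5.87 at 30 dpf, with 8 of 43 higher and 2 lower, and the pectoral fin list had 1 of 10 genes higher and 3 lower. The control array of replicate 1 at 30 dpf had the lowest heart mean, 5.01, against 5.94 and 6.24 in the others. That array was the lowest of its group in 5 of the 16 genes that rose (hoxb2a, hoxc4a, hoxa5a, hoxb5a and hoxc8a), replicate 2 in 5 and replicate 3 in 6. With the heart list mean as a covariate 13 of 43 Hox genes rose and 4 fell, and with the visceral score 16 rose and 2 fell. The visceral means, 5.30 to 5.31 at 10 dpf, did not overlap between the ages, so the visceral fit cannot show the part of these organs. Shares over all genes in these fits are not given here, so a general change in calls cannot be told apart. The part of the visceral, muscle, blood, arch and brain lists in this rise was not tested.

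In knockdown heads Hox genes also fell after 5 dpf and rose by 30 dpf, and whether the steps differed from those of controls was not tested one by one. Between 5 and 10 dpf 9 of 43 members fell and none rose, where 2.91% of all genes and 2.87% of dim genes fell (8.26% of all genes changed), with medians of -0.67 in paralog groups 1 to 4 and -0.41 in groups 5 to 13 and 0.01 over all genes. They were hoxc5a at -1.18, hoxc13a at -1.13, hoxb4a at -1.08, hoxd3a at -1.05, hoxa10b at -1.03, hoxb3a at -0.94, hoxc6b at -0.87, hoxc4a at -0.68 and hoxd4a at -0.67. Arrays of the ages overlapped in hoxb3a, hoxb4a, hoxd4a and hoxc5a. This count changed when single arrays were left out. It was 1 without the 5 dpf array of replicate 1 and 15 without the 10 dpf array of replicate 1. It was 6 without replicate 2 at 10 dpf and 5 without replicate 3 at 10 dpf. Shares over all genes in these fits are not given here, so a general change in calls cannot be told apart. Between 10 and 30 dpf 14 members rose and 3 fell, where 26.9% of all genes rose and 17.0% fell (43.9% changed), and 18.8% and 10.8% of dim genes. The largest rises were those of hoxc5a at 2.53 ± 0.32 (SE), hoxb4a at 2.03 ± 0.25 and hoxb3a at 1.95 ± 0.24, and the falls were those of hoxc11b, hoxc12b and hoxc13b, between -0.65 and -0.46. Over the same step skeletal muscle had 15 of 16 genes higher and 1 lower (8.0 to 8.17 up to 10.04 to 10.20), blood 5 of 5 higher (5.25 to 5.99 up to 7.49 to 8.03), heart 4 of 9 higher (5.00 to 5.25 up to 5.69 to 6.0), the visceral lists 13 of 43 higher and 1 lower (5.31 to 5.50 up to 5.73 to 6.65), pharyngeal arch and gill 3 of 9 higher, and forebrain and midbrain 10 of 16 lower (7.14 to 7.34 down to 6.60 to 6.77). Their part in the rise was not tested.

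Over all 5 ages, 33 of 43 members varied in controls, against 69.4% of all genes, and 26 of 43 in knockdown heads, against 61.0% (limma F test, adjusted p under the threshold of 0.05). The family as a whole was therefore near the share of all genes in both tests. The share of dim genes, to which most members belong, is not given here for these tests. The 10 members without a call in controls were hoxc3a, hoxb6b, hoxc6b and 7 of paralog groups 10 to 13.

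**Figure D3:**
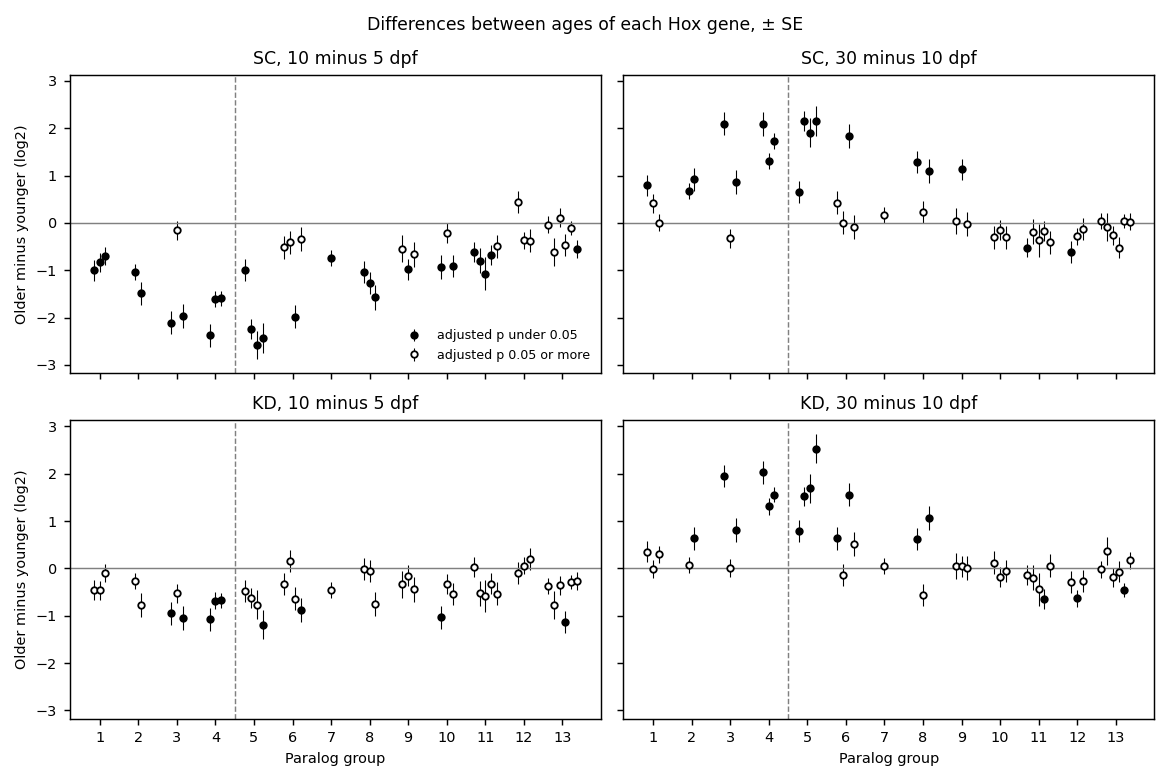
Difference between ages (log2, ± SE from limma) of each Hox gene against its paralog group, in controls (top) and knockdown (bottom), for 10 minus 5 dpf (left) and 30 minus 10 dpf (right). Filled points have an adjusted p under 0.05, and the dashed line separates groups 1 to 4 from 5 to 13. In controls the falls and rises are largest in groups 3 to 6, while in knockdown hoxc13a (-1.13) and hoxa10b (-1.03) are among the larger falls.

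At 5 dpf the knockdown heads had less Hox signal than the controls. Of 43 members 11 were lower and none was higher, where 6.51% of all genes and 8.75% of dim genes were lower (12% of all genes changed either way). In all, 36 of 43 differences were negative, with a median of -0.33 against 0.02 over all genes. Of paralog groups 1 to 4, 6 of 11 were lower, with a median of -0.61. Of groups 5 to 13, 5 of 32 were lower, with a median of -0.26. The 5 dpf controls enter both this comparison and the control step from 5 to 10 dpf, so the 2 sets of differences are not independent of each other.

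The members that were lower belonged to paralog groups 1, 3, 4, 5, 6 and 8. Among genes of the hindbrain and its junction with the spinal cord, hoxb4a read 6.90, 6.16 and 6.58 in knockdown against 7.82, 7.95 and 7.57 in controls, a difference of -1.23 ± 0.25 (SE, limma adjusted p = 0.000984). The hoxc4a signal was 5.27, 5.04 and 5.51 against 6.31, 6.35 and 6.14, a difference of -0.99 ± 0.18 (adjusted p = 0.000243). The hoxd4a signal was 5.69, 4.87 and 5.83 against 6.05, 6.24 and 6.30, a difference of -0.73 ± 0.16 (adjusted p = 0.00264). Thus all 3 measured genes of paralog group 4 were lower, with no overlap between the groups.

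In paralog group 3, hoxb3a read 6.74, 5.50 and 6.19 in knockdown against 7.08, 7.30 and 7.22, a difference of -1.06 ± 0.24 (adjusted p = 0.00358). The hoxd3a signal was 6.82, 5.71 and 6.39 against 6.89, 7.27 and 7.26, a difference of -0.83 ± 0.25 (adjusted p = 0.0303). The other member, hoxc3a, read 5.91, 5.62 and 5.39 against 5.11, 5.80 and 5.70, with no difference beyond the spread (0.10 ± 0.19). In paralog group 1, hoxc1a read 5.49, 5.02 and 4.91 against 5.58, 5.87 and 5.80, a difference of -0.61 ± 0.18 (adjusted p = 0.0248).

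Group 5, whose b-cluster members act in the pectoral fin region of zebrafish, held the largest differences. Signals of hoxc5a were 5.98, 4.77 and 5.40 in knockdown against 6.68, 6.92 and 6.68, a difference of -1.38 ± 0.32 (adjusted p = 0.00382). Those of hoxb5b were 6.46, 4.98 and 5.49 against 6.85, 7.17 and 7.01, a difference of -1.36 ± 0.30 (adjusted p = 0.00291). Those of hoxb5a were 6.08, 5.50 and 5.88 against 6.72, 6.91 and 7.07, a difference of -1.08 ± 0.21 (adjusted p = 0.000676). Arrays of the 2 treatments did not overlap in any of them. The remaining member, hoxa5a, differed by -0.67 (adjusted p = 0.0597).

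Further back, hoxc6a read 5.42, 4.75 and 5.03 in knockdown against 6.15, 6.26 and 6.33, a difference of -1.18 ± 0.24 (adjusted p = 0.00155). The hoxc8a signal was 5.25, 5.22 and 4.87 against 5.98, 6.08 and 5.67, a difference of -0.80 ± 0.26 (adjusted p = 0.0399). The duplicate hoxc6b differed by -0.03 ± 0.25, and the difference between the copies was not tested. Of the 20 genes of paralog groups 9 to 13, a range set after the values were seen, none was called, 1 had an unadjusted p under 0.05 (hoxc13b, 0.40), and the median was -0.18.

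By cluster, 5 of 9 members of hoxca, 3 of 11 of hoxba, 2 of 7 of hoxda and 1 of 3 of hoxbb were lower, and none of 4 of hoxaa, 5 of hoxab and 4 of hoxcb. Cluster and paralog group cannot be told apart in these counts, since the measured members of hoxcb lie in groups 6 and 11 to 13 and those of hoxab in groups 2, 9, 10, 11 and 13.

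In the knockdown arrays at 5 dpf, replicate 1 was nearest to the controls in 9 of the 11 lower genes. The exceptions were hoxc4a and hoxd4a, in which replicate 3 was highest. These genes were called from the same arrays, and the same count over all lower genes is not given here. A shift of the whole array therefore cannot be told apart. Replicate 1 also had the highest visceral mean of its group, 6.16 against 5.67 and 5.42, and the highest heart mean, 5.64 against 5.10 and 5.28. Against the controls at 5 dpf the visceral lists had 41 of 43 genes lower, kidney 5 of 11 lower, the heart list 3 of 9, skeletal muscle 15 of 16, and pectoral fin 3 of 10 lower and 1 higher. None of the 3 spinal motor neuron genes passed the test. Of the hindbrain list, 8 of whose 12 genes were measured, gabra6a was higher and lbx1a lower, 3 of 16 forebrain and midbrain genes were higher, and 1 of 9 pharyngeal arch and gill genes was lower. The visceral means of the treatments, 9.44 to 9.50 in controls and 5.42 to 6.16 in knockdown, did not overlap, so visceral tissue in the sample and the knockdown cannot be told apart at this age. With the visceral score as a covariate no Hox gene was called, and with the heart list mean 1 was lower (hoxc4a) and 1 higher (hoxc13b). The heart means did not overlap either, at 6.04 to 6.17 in controls and 5.10 to 5.64 in knockdown. Since both covariates separate the treatments at this age, neither fit can show the part of these tissues. Shares over all genes in these fits are not given here. The calls of hoxc1a, hoxd3a and hoxc8a were lost when some single arrays were left out, hoxd3a for example without knockdown replicate 2 (-0.53, adjusted p = 0.215).

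**Figure D4:**
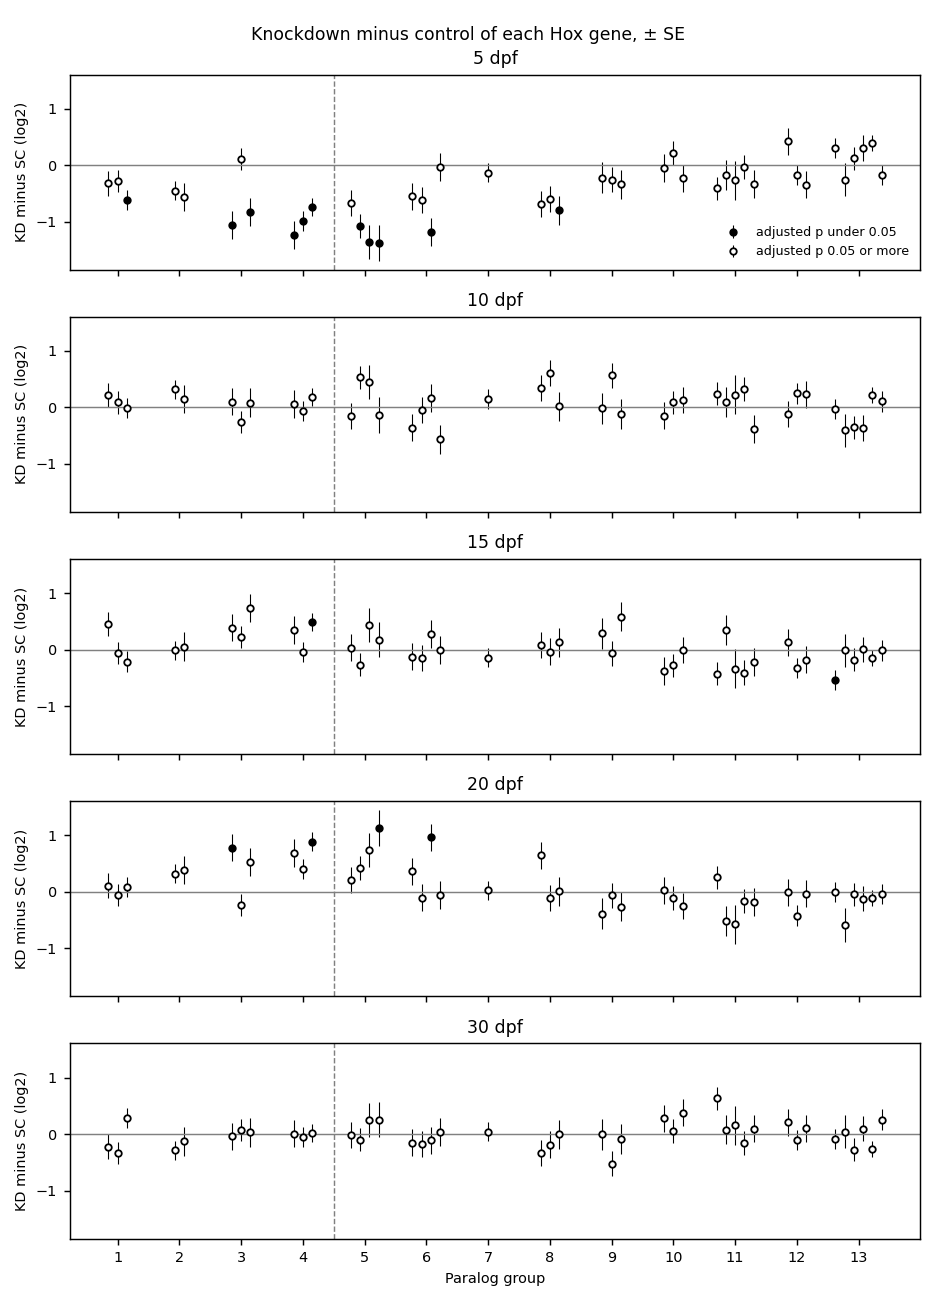
Knockdown minus control (log2, ± SE from limma) of each Hox gene against its paralog group, 1 panel for each age. Filled points have an adjusted p under 0.05, and the dashed line separates groups 1 to 4 from 5 to 13. At 5 dpf the 11 filled points lie between -1.38 and -0.61 in groups 1 to 8, at 20 dpf the 4 filled points lie between 0.78 and 1.13 in groups 3 to 6, and at 10 and 30 dpf there are none.

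At 10 dpf no Hox gene passed the test, against 2.67% of all genes. An unadjusted p under 0.05 was found for 4 members, hoxb5a at 0.53, hoxb8b at 0.61, hoxb9a at 0.57 and hoxc6b at -0.57, and limma with an intensity trend and robust spread also called none. At 15 dpf 2 of 43 were called, against 12% of all genes (9.18% higher and 2.84% lower, and 3.35% and 1.59% of dim genes). The hoxd4a signal was higher in knockdown, 5.23, 5.45 and 5.35 against 4.86, 4.95 and 4.72 (0.50 ± 0.16, adjusted p = 0.0442). The hoxa13a signal, from a gene of the distal fin and tail, was lower, 3.09, 3.40 and 3.31 against 4.0, 3.66 and 3.77 (-0.54 ± 0.18, adjusted p = 0.0459), all far under the dim limit. At this age the visceral lists had 12 of 43 genes higher in knockdown (6.28 to 7.05 against 5.54 to 6.30), skeletal muscle 7 of 16 (8.64 to 9.09 against 8.33 to 8.6), pectoral fin 2 of 10 (6.38 to 6.43 against 6.0 to 6.26) and heart 0 of 9, and their part in these differences was not tested. Neither call at 15 dpf held when knockdown replicate 1 or 2 or control replicate 1 was left out.

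At 20 dpf 4 of 43 members were called, all higher in knockdown, where 10.2% of all genes and 3.91% of dim genes were higher (14.5% of all genes changed either way). The share of members, 9.30%, was thus close to that of all genes and above that of dim genes, and neither comparison was tested. Signals of hoxc5a were 5.37, 5.74 and 5.23 in knockdown against 4.39, 4.61 and 3.94, a difference of 1.13 ± 0.32 (SE, adjusted p = 0.0151). Those of hoxc6a were 4.99, 4.53 and 4.89 against 3.69, 3.67 and 4.16 (0.96 ± 0.24, adjusted p = 0.00808). Those of hoxd4a were 5.93, 5.69 and 5.66 against 4.92, 4.85 and 4.84 (0.89 ± 0.16, adjusted p = 0.000347). Knockdown arrays lay above all control arrays in each.

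The brightest of the 4, hoxb3a, read 6.62, 6.31 and 6.16 in knockdown against 5.62, 5.49 and 5.63 (0.78 ± 0.24, adjusted p = 0.0276). Values that missed the threshold included hoxb5b at 0.74, hoxb4a at 0.68 and hoxb8a at 0.64. Of paralog groups 1 to 4, 2 of 11 were higher, with a median of 0.39, and of groups 5 to 13, 2 of 32, with a median of -0.05. In groups 9 to 13, 18 of 20 differences were negative, with a median of -0.12, and none was called. The share of negative differences over all or dim genes is not given here, so a general shift of dim genes cannot be told apart. The count of called members was 2 without control replicate 3 and 2 without knockdown replicate 2, when hoxb3a and hoxc5a missed the threshold. It was 11 when only the 20 dpf arrays were fitted, with 10 higher and 1 lower. Shares over all genes in these fits are not given here, so a general change in calls cannot be told apart.

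All 4 genes higher at 20 dpf were among the 11 lower at 5 dpf, 36.4% of the 11. Over all genes, 200 were lower at 5 dpf and higher at 20 dpf, which is 15.9% of the 1254 lower and 10.2% of the 1956 higher genes, or 1.04% of those tested. At 20 dpf the heart list read 5.14 to 5.68 in knockdown against 4.80 to 5.04 in controls, with a median difference of 0.39. Of its genes 1 of 9 was called (myl7, the cardiac myosin light chain, higher by 1.70), near the 10.2% of all genes that were higher. The means of bmp10 and gata4 lay slightly under those of controls. Skeletal muscle read 9.32 to 9.41 against 8.81 to 8.99, with 5 of 16 higher. At 5 dpf myl7, which was picked after its values were seen, was lower in knockdown by -1.69. The visceral means overlapped at 20 dpf, 5.30 to 5.72 against 5.26 to 5.31, although 6 of 17 liver genes were higher. With the visceral score as a covariate 3 Hox genes were higher, and with the heart list mean 2 were higher and 1 lower, without the shares over all genes in these fits. The heart means of the treatments did not overlap at this age, so the heart fit cannot show the part of heart. The part of heart and muscle in the 20 dpf difference was not tested.

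At 30 dpf no member was called, against 1.00% of all genes, with an unadjusted p under 0.05 for hoxa11a at 0.63 and hoxb9a at -0.52. Knockdown and control signals were close in the genes that had differed before: hoxb4a read 7.41, 7.58 and 7.52 against 7.50, 7.54 and 7.44, and hoxd4a 6.41, 6.23 and 6.41 against 6.37, 6.39 and 6.25. The mean of the 5 knockdown differences called no member, against 3.01% of all genes, with unadjusted p under 0.05 for hoxd4a at 0.17 and hoxb6b at -0.22. The knockdown difference itself varied with age for 13 of 43 members (limma F test), against 31.7% of all genes, so the family was near the share of all genes. The share of dim genes is not given here for this test. By paralog class the 13 members were 6 of 11 in groups 1 to 4 and 7 of 32 in groups 5 to 13. The smallest adjusted p was that of hoxd4a (8.42e-05), with differences of -0.73, 0.19, 0.50, 0.89 and 0.02 at the ages in order.

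**Figure D5:**
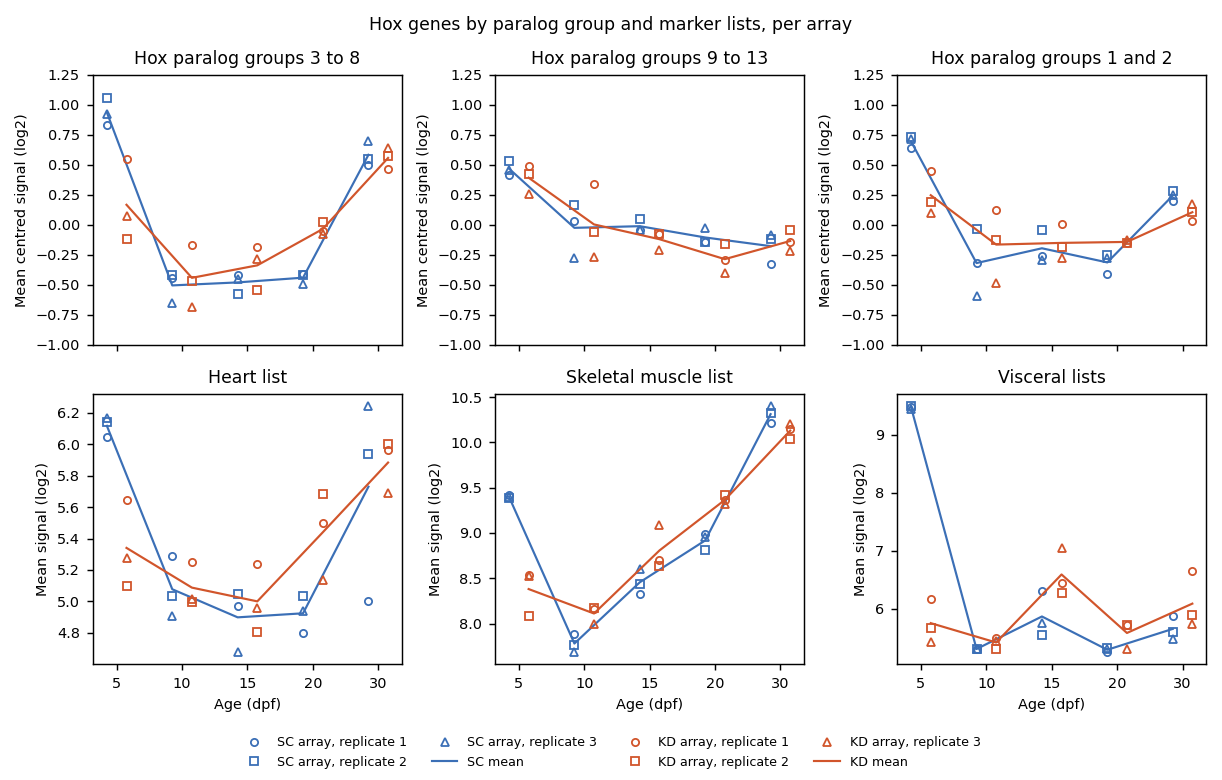
Per-array mean over Hox genes of paralog groups 3 to 8, 9 to 13 and 1 and 2 of the signal minus each gene's mean over all arrays (top, log2), and per-array mean signal of the heart, skeletal muscle and visceral lists (bottom, log2), against age in dpf, evenly spaced and not to scale. Symbols are arrays and lines join group means. Groups 3 to 8 lie at 0.83 to 1.05 in controls at 5 dpf, -0.12 to 0.54 in knockdown at 5 dpf, -0.50 to -0.41 in controls and -0.07 to 0.02 in knockdown at 20 dpf, and 0.46 to 0.69 in all 6 arrays at 30 dpf.

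The split at paralog group 4 did not separate the genes that moved from those that did not. The mean over the 18 genes of groups 3 to 8 followed the course described above, in a bin chosen after the values were seen that carries no test, but not each of its genes did. Control means of hoxc3a were 5.54, 5.38 and 5.05 at 5, 10 and 30 dpf, and those of hoxb8b were 6.26, 5.0 and 5.23. In controls the mean centred signal of this bin lay between -0.65 and -0.42 at 10 dpf and between -0.57 and -0.42 at 15 dpf. In knockdown heads it lay between -0.68 and -0.17 at 10 dpf and between -0.54 and -0.19 at 15 dpf, so the treatments overlapped at both ages in groups 3 to 8. In groups 1 to 4 the knockdown arrays lay above the control arrays at 15 dpf, at -0.27 to -0.09 against -0.48 to -0.35. They did so at 20 dpf too, at -0.03 to 0.03 against -0.40 to -0.31. In groups 5 to 13 the treatments overlapped at both 15 and 20 dpf. This difference between the classes was not tested. The genes of groups 1 and 2 lay at 0.64 to 0.73, -0.60 to -0.04 and 0.20 to 0.29 in controls at 5, 10 and 30 dpf. The 20 genes of groups 9 to 13 went from 0.41 to 0.53 in controls at 5 dpf to -0.33 to -0.09 at 30 dpf, and from 0.26 to 0.49 to -0.22 to -0.04 in knockdown. The arrays of the treatments overlapped at each age in this bin except at 15 and 20 dpf. There the knockdown arrays lay under the control arrays, at -0.21 to -0.07 against -0.04 to 0.05 and -0.40 to -0.16 against -0.15 to -0.03. This was not tested, in a bin also chosen after the values were seen, and the gap at 20 dpf was narrow. Of the genes in this bin only hoxa13a was called at 15 dpf and none at 20 dpf. At 10 dpf, replicate 1 of the knockdown had the highest Hox mean of its group in each bin, for groups 9 to 13 at 0.34 against -0.06 and -0.27.

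Genes that act with or upstream of Hox genes were compared between the treatments in the same way. Of the cofactors of the TALE homeodomain class, 11 of 14 were measured; at 5 dpf meis3, a hindbrain cofactor, was lower in knockdown by -0.86 ± 0.18 (SE, adjusted p = 0.00207) and pbx2 higher by 0.43, with a median of 0.22 over the list, and none was called at 20 dpf. At 15 dpf meis3 was higher by 0.63. Of upstream regulators and the retinoic acid pathway, 19 of 21 were measured. At 5 dpf cdx1b, a caudal homeobox gene that also stands in the intestine list, was lower by -1.22, and cyp26c1, which degrades retinoic acid, was higher by 0.41. At 20 dpf cyp26c1 and cdx1a were lower, by -0.57 and -0.62, and at 15 dpf rarga, a retinoic acid receptor, was higher by 0.44. In either list 1 gene was thus higher and 1 lower at 5 dpf and 1 higher at 15 dpf, where 12% of all genes changed at each age. At 20 dpf 2 of 19 regulators were lower, where 14.5% of all genes changed. With lists this short, the counts were near or under the share of all genes.

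Of Polycomb and Trithorax genes, which keep Hox genes silent or active, 21 of 25 were measured. At 5 dpf phc2b and kdm6bb, a demethylase of the Polycomb mark, were higher by 0.65 and 0.54. At later ages ezh2, the Polycomb methyltransferase, was higher by 0.70 at 10 dpf, lower by -0.78 at 15 dpf and higher by 0.84 at 20 dpf, and its partner suz12a was higher by 0.65 at 10 dpf and 0.66 at 20 dpf. The Polycomb gene cbx2 was higher by 0.66 at 15 dpf and lower by -0.44 at 20 dpf, and cbx7a lower by -1.17 at 10 dpf and higher by 0.85 at 15 dpf. At 5 dpf 2 of the 21 were thus higher and none lower, and at each of 10, 15 and 20 dpf 2 were higher and 1 lower. These counts were near the share of all genes called at 5, 15 and 20 dpf, while at 10 dpf that share was 2.67%. The medians over the list at 5, 10, 15 and 20 dpf were 0.17, 0.04, 0.12 and -0.03. Of 18 measured genes of the list of Hox cluster neighbours, cbx1a and snx10b were higher at 5 dpf, by 0.36 and 0.46, and none was lower. At 15 dpf calcoco1a was higher by 0.91 and cbx3a lower by -0.50. At 20 dpf hibadhb, cbx3a and cbx1a were higher, by 0.75, 0.59 and 0.41, and calcoco1a lower by -0.99. At 5 dpf these calls were 2 of 18, near the share of all genes called, and the median over the list was -0.09. At 15 dpf 1 of the 18 was higher and 1 lower, where 12% of all genes changed. At 20 dpf 3 were higher and 1 lower, where 14.5% of all genes changed.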

How the data were processed

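The authors deposited log2 signals, 1 per probe set and array; the submitters' processing notes name RMA without a version. Of 75212 probe sets, those with 1 symbol (20806) were kept, 20323 symbols were updated through Entrez identifiers, and the probe set of highest mean signal stood for a gene. This included 4 Hox genes with several probe sets, hoxc3a, hoxd3a, hoxc8a and hoxd10a, whose dimmer probe sets are not reported apart. With the mean of all probe sets of a gene, 3 of 88 Hox calls missed the threshold. All 43 Hox genes matched RefSeq by identifier. The limma package 3.58.1 (R 4.3.3) fitted 1 mean per group over the 30 arrays, leaving 20 residual and 6.05 prior degrees of freedom. Tests were two-sided, with Benjamini-Hochberg adjustment over 19260 genes at a threshold of 0.05, to which called, higher, lower, rose and fell refer. Groups of 3 arrays limit the precision, and p-values reflect the spread between pools, which the labels do not place in separate clutches. The members and lists were chosen with earlier results of these data known. By the rule for naming, any Hox gene may be named, array values are given for called members by size, at most 12 a contrast, and called genes of the cofactor, regulator, Polycomb and neighbour lists by smallest p, at most 4 a list. Array values beyond this (hoxc3a, hoxb3a at 15 dpf, and hoxb4a and hoxd4a at 30 dpf) and the genes myl7, gabra6a and lbx1a were chosen after their values were seen, and some array values within it were left out for length. Alternatives were another spread model, normalization, probe set rule, array weights, a replicate block, covariates, subsets and arrays left out. The scripts were tested on simulated data. Figures come from matplotlib 3.10.9.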

Additional observations from a re-analysis of the deposited data

Results flagged for a closer look

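For 13 Hox genes the knockdown difference varied between ages by the limma F test of the 5 differences, which is a share near that of all genes (31.7%). The share of dim genes is not given here. The adjusted p was 8.42e-05 for hoxd4a, 0.00068 for hoxc6a, 0.00097 for hoxb5a, 0.00159 for hoxb4a, 0.00188 for hoxc4a, 0.00199 for hoxc5a, 0.00215 for hoxb3a, 0.00298 for hoxb5b, 0.011 for hoxd3a, 0.0161 for hoxb8a, 0.0182 for hoxa11a, 0.0303 for hoxa2b and 0.0467 for hoxc13b. In the first 10 of these the difference was negative at 5 dpf and positive at 20 dpf. For hoxa11a it was -0.41, 0.24, -0.43, 0.26 and 0.63 at the ages in order, for hoxa2b -0.45, 0.32, -0.01, 0.32 and -0.28, and for hoxc13b 0.40, 0.23, -0.15, -0.11 and -0.27. With the 5 dpf arrays left out, 2 members varied.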

How the results depend on the processing

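The counts of Hox genes called are given here for the alternatives that moved them by over 1.5 times, without the share of all genes in the same fit. The cause was not tested except where fewer genes or arrays entered. Among the covariates was the visceral score. Leaving out the dim genes kept 4 members, of which 3 were called at 5 dpf, 0 at 15 dpf and 2 at 20 dpf between treatments, 4 and 2 from 5 to 10 dpf in controls and knockdown, 3 and 4 from 10 to 30 dpf, and 2, 4 and 4 in the F tests of the knockdown difference, of age in controls and of age in knockdown. The visceral score and the heart list mean did not overlap between the groups compared at 5 dpf or in the control step from 5 to 10 dpf. The visceral score did not overlap between treatments at 10 dpf, or between 10 and 30 dpf in either treatment. The heart list mean did not overlap between treatments at 20 dpf, or between 10 and 30 dpf in knockdown. Covariate counts there cannot show the part of these tissues. With the visceral score as a covariate 0 were called at 5 dpf, 0 at 15 dpf and 0 for the control step from 5 to 10 dpf. The F tests of the knockdown difference and of age in controls called 2 and 18 with it. In that fit these values turned positive, none called: hoxb3a 0.72, hoxb4a 0.069, hoxc6a 0.23 and hoxc8a 1.04 at 5 dpf between treatments, and hoxb7a 0.81, hoxb8a 0.0025, hoxc8a 0.49, hoxa11b 0.19 and hoxc11b 1.08 for the control step. The heart covariate, added after the data were seen, gave 2 at 5 dpf, 1 at 15 dpf, 12 for the control step and 6 in the F test of the knockdown difference. Without the 5 dpf arrays the F tests called 2, 19 and 16. At 15 dpf the count was 1 with an intensity trend and robust spread, 0 with a further quantile normalization, 1 with median centring, 0 with array weights and 0 with only the groups compared. At 20 dpf it was 12 with array weights and 11 with only the groups compared, which gave 1 at 30 dpf and 3 for the knockdown step from 5 to 10 dpf. Leaving out single arrays gave counts of 8 to 14 at 5 dpf, 0 to 1 at 10 dpf, 0 to 3 at 15 dpf, 2 to 5 at 20 dpf, 0 to 1 for the mean difference and 1 to 15 for the knockdown step. Median centring split the control step from 10 to 30 dpf into 15 higher and 8 lower. The replicate block, a factor shared by all ages, gave 11 at 5 dpf, 5 at 20 dpf and changed no call of a named gene among 88. Correlations of the deviations of same-numbered arrays were -0.12 to 0.28, and 4 of 15 exceeded 0.1. At 5 dpf they were -0.12, 0.02 and -0.09. At 20 dpf they were 0.18, 0.12 and 0.08, while those of differently numbered arrays lay between -0.12 and -0.01. Pairing within an age was not tested. Low signals limit the tail-ward genes.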
